A study of Mus musculus with 21 samples.

Results

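Postnatal male germ cells without Tex15 were set against 6 control libraries as 1 set, and 38 genes and 3 repeat names passed in that comparison while passing against neither control genotype alone. They are 38 of 14367 genes tested and 3 of 1110 repeat names tested (0.27%), and 0 of 52 repeat families tested fell in the class. The tested cells were Tex15 knockout (KO, labelled ko, 3 libraries). The controls were heterozygotes that keep 1 functional allele (HT, 3 libraries) and wild type (WT, 3 libraries), all sorted by Oct4-GFP, a germ cell reporter that every group carried, from male pups of mixed strain background born to heterozygous parents. The age is D2.5 in the sample names and day 2 in the design text. Embryonic libraries of KO and HT cells at E16.5 and E18.5, 3 each, played no part in choosing the members and serve below as separate samples; WT was profiled only after birth. The design text calls the replicates biological triplicates and does not say how many animals went into each sort.

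Male germ cells erase most DNA methylation in the embryo and re-establish it before birth, a window in which transposons can be transcribed. Small RNAs of the piRNA pathway guide the nuclear protein MIWI2 (Piwil4) to young transposon copies, and TEX15 is a nuclear partner of MIWI2 needed for their methylation in the mouse. The D2.5 cells are prospermatogonia, which have completed most of that methylation.

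The members were chosen by a threshold on adjusted p in edgeR's quasi-likelihood test: below 0.05 for KO against the mean of HT and WT, and not below it for KO against HT or KO against WT. Their D2.5 fold changes and p-values are therefore a description. Just inside the threshold stood Cpeb1 (adjusted p = 0.0486), and just outside it stood Hikeshi (adjusted p = 0.0531), Plac8l1 (adjusted p = 0.0558) and Glg1 (adjusted p = 0.0562), all by edgeR. Levels are given in CPM, counts scaled to the reads assigned to genes with TMM factors; CPM is not divided by transcript length.

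Gene totals were 6063632 to 7391401 counts per D2.5 library, and 3 counts corresponded to 0.403 to 0.490 CPM. The summed level of 14 germ cell markers was 4492 to 6457 CPM in KO, 5423 to 5871 CPM in HT and 5720 to 6877 CPM in WT, with no marker at 0 in all libraries of a genotype. KO replicate 3 stood apart on the first principal component (18.7% of variance), at a score of 113, while the other 8 libraries lay between -35.3 and 19.1; 14 of the 38 genes described here were also called against the 6 controls without it. Tex15 itself stood at 20.3, 20.02 and 14.0 CPM in KO, at 1498, 1835 and 1573 CPM in HT and at 3762, 3119 and 3649 CPM in WT. It was the 1 gene (0.00696%) that passed between HT and WT (log2 fold change -1.10, edgeR adjusted p = 0.00133); 488 genes (3.4%) had an unadjusted p under 0.05 in that comparison.

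Against the 6 controls 61 genes were higher (0.425% of those tested) and 9 lower (0.0626%), 70 in all (0.487%). Against HT alone 22 genes passed (0.153%) and against WT alone 31 passed (0.216%). Of the 70 genes, 20 passed in all 3 comparisons, 2 also with HT, 10 also with WT, and 38 with the 6 controls only (0.264% of genes tested). Those 38 comprised 32 higher and 6 lower genes. The 5 widest rises among the 20 were those of Cyp4a12b, Asb12, Gpr179, Cdh19 and C6, with log2 fold changes of 6.12 to 9.204. Several of the 32 higher members lay in the same range, but each of these had only 0 to 2 counts over the 6 controls together. The size of their change is therefore uncertain. Cyp4a12b and Asb12 were also near 0 in the controls, at a mean of 0.0481 and 0.0530 CPM. Kat2b was the 1 gene that passed against a control alone (WT) and not against the 6; it was named after its values were seen.

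All 38 members had the same sign of fold change against HT and against WT. The fold change against the 6 controls is the mean of the fold changes against HT and against WT. The choice of the members therefore favours a shared sign, and nothing is read from this count. The adjusted p of the members by edgeR was 0.00248 to 0.0486 against the 6 controls, 0.0529 to 0.444 against HT and 0.0511 to 0.594 against WT. The comparisons with HT and with WT share the KO libraries, and each shares its controls with the pooled comparison. The adjusted p was under 0.1 with both controls for 4 members and at 0.1 or more with both for 24. Over all genes tested, the median ratio of the SE with 6 controls to the SE with one control genotype was 0.866 for HT and 0.866 for WT; among the members the median SE was 0.67, against 0.86 for HT and 0.86 for WT. The HT and WT means of a member differed by less than 0.5 on the log2 scale for 21 genes and by at least 1 for 12. None of the 38 passed for HT against WT in edgeR, and 1 (Pamr1, log2 fold change -4.30) had an unadjusted p under 0.05.

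**Figure D1:**
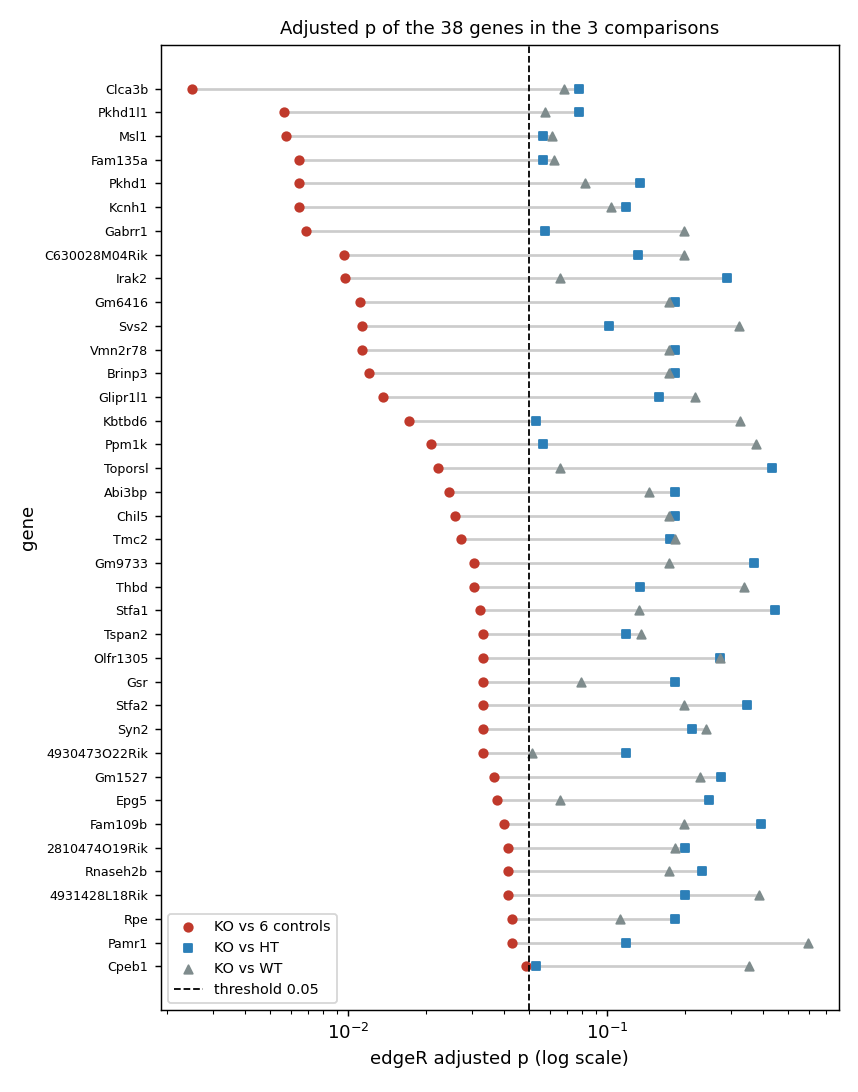
Adjusted p (edgeR, log axis) of each of the 38 genes against the 6 controls (red circles), HT (blue squares) and WT (grey triangles). Every red circle lies left of the 0.05 line and every other symbol right of it, as the choice of the genes fixes; adjusted p for the single controls ranges from 0.0511 to 0.594.

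In 30 of the 32 higher members each KO library lay above each control library, a pattern seen in 2.5% of all genes tested; in all 6 lower members each KO library lay below each control (2.1% of genes). Since the same values chose the members, nothing is read from these counts. Fam109b and Pamr1 were the 2 with overlap. Of the higher members 16 had a control mean under 1 CPM, 7 had 1 to 10 CPM, 5 had 10 to 50 CPM and 4 had at least 50 CPM, while 1.73% of all genes tested had a control mean under 1 CPM. A gene that low in the controls entered the test mainly through its KO counts. Fam109b and Pamr1 also needed a control library to enter, HT replicate 2 (2.28 CPM) and WT replicate 2 (2.75 CPM). The median log2 fold change of the higher members was 3.67 (3.55 with the genes at 0 in the controls set to their bound) and that of the lower members -1.17, beside 0.01 for all genes tested.

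**Figure D2:**
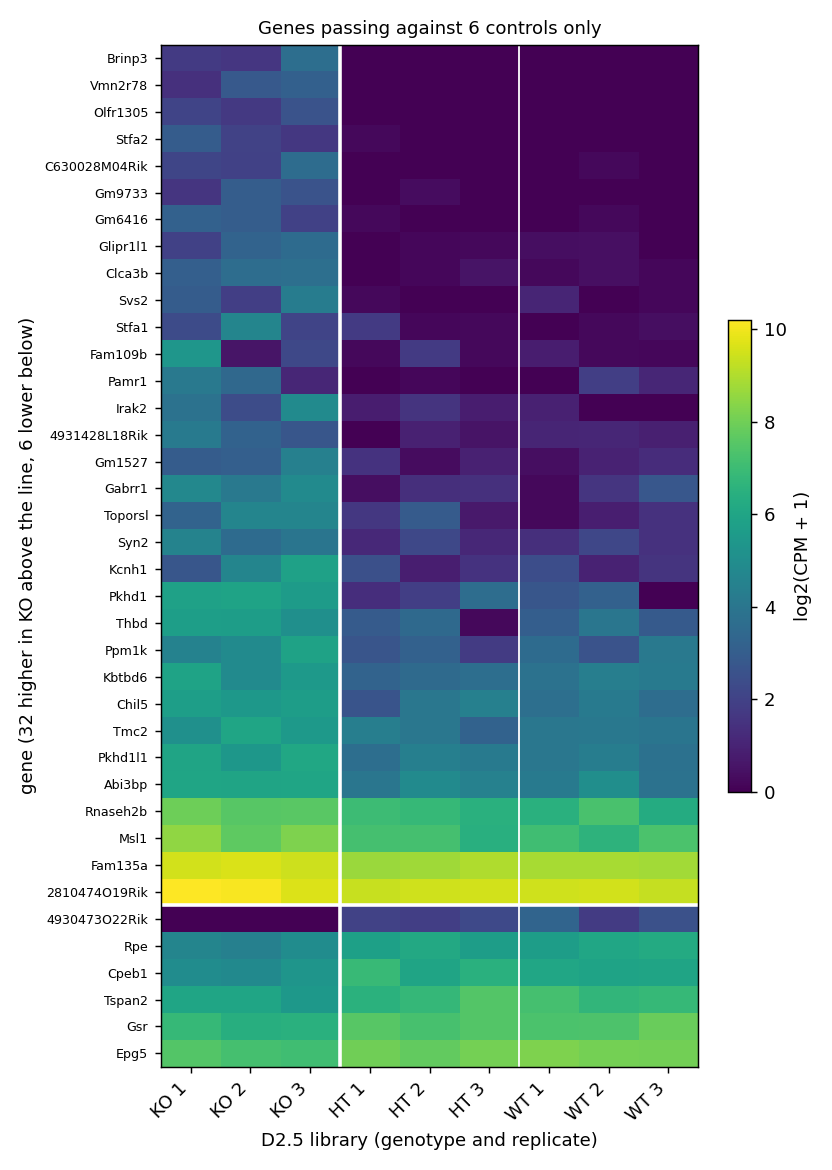
Level of each of the 38 genes in the 9 D2.5 libraries as log2(CPM + 1), KO at the left, then HT, then WT, with genes ordered by their mean in the controls. The 16 genes at the top have under 1 CPM in the controls, and the 6 genes below the white line are lower in KO.

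The member with the lowest p was Clca3b, a member of the calcium-activated chloride channel regulator family. It stood at 7.43, 11.4 and 12.4 CPM in KO, against 0 to 0.454 CPM in the 6 controls (median 0.150), and the log2 fold change was 5.57 (SE 0.93, adjusted p = 0.00248 by edgeR). All 3 KO libraries were far above the highest control. The 31-base words of Clca3b transcripts were shared to 15.1% with other genes, chiefly Clca3a2 and Clca3a1, and Clca3a2 had a log2 fold change of 4.51 (edgeR adjusted p = 0.0979), so reads of both genes cannot be fully told apart.

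A pair of fibrocystin genes were members. Pkhd1, mutated in recessive polycystic kidney disease, stood at 56.9, 60.4 and 48.0 CPM in KO, against 0 to 11.7 CPM in the controls (median 4.15), and its log2 fold change was 3.49 (SE 0.64). Pkhd1l1, which encodes a related protein of the hair cell surface, stood at 61.0, 40.8 and 67.4 CPM in KO, against 11.9 to 20.1 CPM in the controls (median 16.2), and its log2 fold change was 1.81 (SE 0.32). For both the lowest KO library was above the highest control, by a wider margin for Pkhd1. Against HT and against WT alone, Pkhd1 had edgeR adjusted p of 0.133 and 0.0817 and Pkhd1l1 of 0.0780 and 0.0574. The call of Pkhd1 ended in DESeq2.

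Gabrr1, a rho subunit of the ionotropic GABA receptor, stood at 26.5, 16.3 and 28.9 CPM in KO, against 0.156 to 5.76 CPM in the controls (median 1.64), with a log2 fold change of 3.73 (SE 0.69). Kcnh1, a voltage-gated potassium channel, stood at 5.73, 23.9 and 56.5 CPM in KO, against 0.806 to 4.62 CPM in the controls (median 1.85). Its KO libraries were widely spread, and its call ended without KO replicate 3 (log2 fold change 2.62, edgeR adjusted p = 0.191, against 3.57 with it). Syn2, a synaptic vesicle phosphoprotein, stood at 22.6, 10.9 and 14.9 CPM in KO, against 1.21 to 3.63 CPM in the controls (median 1.65). Tmc2, part of the mechanotransduction channel of hair cells, stood at 33.7, 63.6 and 44.7 CPM in KO, against 8.18 to 19.7 CPM in the controls (median 15.4). In Syn2 and Tmc2 the groups did not overlap, but the call of each ended in 7 of the 9 fits that left out 1 library (edgeR adjusted p up to 0.264 for Syn2 and 0.262 for Tmc2). Timp4 lies within Syn2 on the opposite strand, at a log2 fold change of 2.59 (edgeR adjusted p = 0.426), and the counting is not stated to use strand.

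For 3 members every control was at 0. Vmn2r78, a vomeronasal pheromone receptor, held 1.70, 6.25 and 7.67 CPM in KO and no count in HT or WT, which makes it at least 11.5-fold higher with 3 counts per library taken as the limit for the controls. It shared 25.8% of its 31-base words with other receptors of its family, chiefly Vmn2r79. Brinp3, a gene of the nervous system, held 2.32, 2.08 and 11.8 CPM in KO and none in the controls (at least 11.9-fold higher). Olfr1305, an odorant receptor, held 3.25, 2.24 and 5.06 CPM in KO and none in the controls (at least 7.80-fold higher). The call of Brinp3 ended without KO replicate 3, its highest library (edgeR adjusted p = 0.188), that of Vmn2r78 without KO replicate 2 or 3, and that of Olfr1305 without any 1 of the 9 libraries.

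Thbd, thrombomodulin of the endothelial surface, stood at 52.0, 49.6 and 33.3 CPM in KO, against 0.151 to 15.1 CPM in the controls (median 6.98), with a log2 fold change of 2.60 (SE 0.56). Its call ended without HT replicate 1, KO replicate 1, KO replicate 2, WT replicate 1 or WT replicate 3 (edgeR adjusted p up to 0.140) and in DESeq2 (adjusted p = 0.128). Irak2, a kinase of Toll-like and interleukin receptor signalling, stood at 13.5, 4.16 and 28.2 CPM in KO, against 0 to 1.88 CPM in the controls (median 0.764). Its log2 fold change was 4.63, and 3.85 without KO replicate 3, where the call ended (edgeR adjusted p = 0.162). The summed level of 16 endothelial markers was 343 to 679 CPM in KO, 463 to 619 CPM in HT and 375 to 577 CPM in WT, so it overlapped between genotypes, and Cldn5 was at 0 in KO. Stfa1 and Stfa2 encode stefins, which inhibit cysteine proteases. Stfa1 stood at 4.02, 24.3 and 3.27 CPM in KO, against 0 to 2.31 CPM in the controls (median 0.157), and Stfa2 had 76 counts in KO against 1 in the controls, a ratio of 162 with a counting interval of 28.2 to 6469. Without KO replicate 2, its highest library, Stfa1 had a log2 fold change of 3.24 (edgeR adjusted p = 0.497), against 4.77 with it, and its call ended in 5 other fits that left out 1 library; that of Stfa2 ended in all 9. Transcripts of Stfa1 and Stfa2 shared 43.8% and 33.3% of their 31-base words with other genes, so their counts are uncertain.

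Svs2, a seminal vesicle secretory protein, stood at 6.81, 2.72 and 18.8 CPM in KO, against 0 to 1.09 CPM in the controls (median 0.0720). Glipr1l1, a sperm surface protein, stood at 2.94, 8.49 and 10.9 CPM in KO, against 0 to 0.324 CPM in the controls (median 0.143). In both genes the lowest KO library was above the highest control. The call of each ended without KO replicate 3, and that of Glipr1l1 also without KO replicate 2. Transcripts of Glipr1l1 shared 19.5% of their 31-base words with Glipr1l3, so its counts are uncertain. Abi3bp, a matrix protein, was tight in KO at 63.4, 61.0 and 62.2 CPM, against 13.4 to 31.8 CPM in the controls (median 19.6). Chil5, a chitinase-like protein, stood at 51.8, 42.8 and 50.1 CPM in KO, against 5.24 to 20.9 CPM in the controls (median 13.8). The call of Abi3bp ended in 6 of the 9 fits that left out 1 library and that of Chil5 in 5, the KO libraries each among them. Chil5 shared 17.8% of its 31-base words, chiefly with Gm42722 on the opposite strand, so its counts are uncertain too. The summed level of 16 stromal and peritubular markers was 389 to 901 CPM in KO, 244 to 371 CPM in HT and 240 to 543 CPM in WT, and their median log2 fold change was 0.77, beside 0.01 for all genes. Of 14 tested, 6 were higher and 2 lower at an unadjusted p under 0.05, beside 8.94% of all genes in either direction; 0 passed after adjustment by edgeR, none was at 0 in all libraries of a genotype, and their part in these values was not tested. In bulk samples fewer cells of a type and less RNA per cell cannot be told apart.

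The 2 members with overlapping groups each rested on few libraries. Fam109b, an adaptor of endosomal traffic, stood at 39.8, 0.480 and 3.59 CPM in KO, against 0.144 to 2.28 CPM in the controls (median 0.158). Its KO replicate 2 lay within the controls, and without KO replicate 1 its log2 fold change fell to 1.82 (edgeR adjusted p = 0.856), against 4.65 with all libraries. Pamr1, a secreted protein with a trypsin-like domain, stood at 16.4, 9.93 and 1.14 CPM in KO, at 0, 0.134 and 0 CPM in HT and at 0, 2.75 and 1.15 CPM in WT. KO replicate 3 of Pamr1 lay below 2 of the WT libraries, and its log2 fold change was 7.10 against HT and 2.80 against WT. Its call ended in 7 of the 9 fits that left out 1 library.

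Members with high counts in the controls had smaller fold changes than most others. The choice by adjusted p favours this, since a gene with few counts has a larger SE and needs a larger change to pass. Msl1, a scaffold of the complex that acetylates histone H4 at lysine 16, stood at 364, 202 and 296 CPM in KO, against 85.4 to 159 CPM in the controls (median 139), a log2 fold change of 1.17 (SE 0.21). Fam135a, a little studied gene, stood at 733, 792 and 697 CPM in KO, against 408 to 511 CPM in the controls (median 455), a log2 fold change of 0.70 (SE 0.13). Rnaseh2b, a subunit of the RNase H2 that removes ribonucleotides from DNA, stood at 250, 185 and 190 CPM in KO, against 77.6 to 154 CPM in the controls (median 101). None of these groups overlapped. The call of Msl1 ended without KO replicate 1, that of Fam135a without KO replicate 2, and that of Rnaseh2b in 7 of the 9 fits that left out 1 library (edgeR adjusted p up to 0.246). At lower counts Kbtbd6, an adaptor of a cullin ubiquitin ligase, had a log2 fold change of 1.75, while Kbtbd7, with which it shares most of its repeated 31-base words, was at 0.20; 27.2% of the words of Kbtbd6 are shared. Ppm1k, the mitochondrial phosphatase that activates branched-chain amino acid breakdown, had 2.25, and Toporsl, a gene similar to the ubiquitin ligase Topors, had 3.47. Leaving out 1 library ended the call of Kbtbd6 in 2 fits of 9, of Ppm1k in 4 and of Toporsl in 5. Fam135a, Kbtbd6, Ppm1k, Abi3bp, Chil5, Tmc2, Stfa2, Olfr1305 and Rnaseh2b fell outside the naming rule and were named after their values were seen.

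Gene models named Gm or Rik made up 6 of the higher members, with log2 fold changes of 0.57 to 7.31. One of them, 2810474O19Rik, named after its values were seen, is Resf1 in RefSeq, a factor known in mouse embryonic stem cells to aid the silencing of endogenous retroviruses. It stood at 1181, 1099 and 820 CPM in KO, against 640 to 737 CPM in the controls (median 706), the smallest change among the higher members. Its groups did not overlap. Its call ended without any 1 of the other 8 libraries (adjusted p by edgeR up to 0.222) and under the replicate block, and held without KO replicate 3.

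Of the 6 lower members, 5 had log2 fold changes of -0.75 to -1.28, and the remaining one had no count in KO. Gsr, glutathione reductase, stood at 112, 84.6 and 87.2 CPM in KO, against 149 to 231 CPM in the controls (median 170), a log2 fold change of -0.91 (SE 0.20). Rpe, an epimerase of the pentose phosphate pathway, stood at 24.0, 20.98 and 30.04 CPM in KO, against 49.98 to 73.6 CPM in the controls (median 59.7), a log2 fold change of -1.28 (SE 0.29). For both the highest KO library was below the lowest control. The call of Rpe ended without any 1 of the 9 libraries, under the replicate block and in limma-voom, and that of Gsr without 5 of the 9. Rpe overlaps Kansl1l on the opposite strand and shares 16.4% of its words, and Kansl1l was at 0.01.

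Cpeb1 binds cytoplasmic polyadenylation signals in germ cell messages. Its level was 30.5, 28.0 and 38.5 CPM in KO, against 59.95 to 116 CPM in the controls (median 63.5), a log2 fold change of -1.19 (SE 0.27). Epg5, a tether of autophagosome fusion, stood at 178, 147 and 135 CPM in KO, against 214 to 296 CPM in the controls (median 263), and Tspan2, a tetraspanin, at 62.4, 62.9 and 42.3 CPM in KO, against 90.9 to 178 CPM in the controls (median 112). Leaving out 1 library ended the call of Cpeb1 in 8 fits of 9, of Epg5 in 7 and of Tspan2 in 6. The gene model 4930473O22Rik, named after its values were seen, had no count in KO and 2.43 to 8.74 CPM in the controls, which makes it at least 8.88-fold lower with 3 counts per library as the limit for KO; its call ended in 7 of the 9.

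At E18.5, in libraries that the choice of members did not use, 27 of the 32 higher members passed the filter and 10 of them were higher in KO than in HT (37.0%), beside 2.07% of the 18199 genes tested there. The fold change was above 0 in 25 of the 27, beside 49.2% of all genes, and the median log2 fold change was 0.80, beside -0.004 for all genes. In 18 of the 27 the unadjusted p was under 0.05 (8.12% of genes tested), and in 17 of the 27 the KO libraries were all above the HT libraries (8.21% of genes tested). The 5 that could not be tested for low counts were Svs2, Stfa1, Stfa2, Olfr1305 and 1 gene model.

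**Figure D3:**
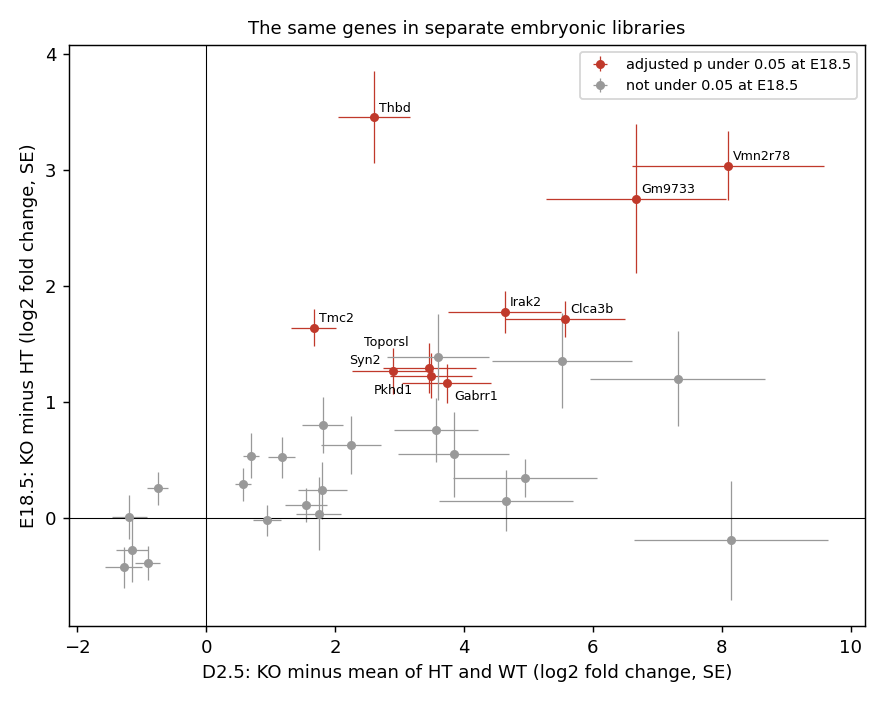
Log2 fold change at D2.5 (KO minus the mean of HT and WT, which chose the genes) against that at E18.5 (KO minus HT), with SE, for the 32 members tested at E18.5. Red marks the 10 genes with an adjusted p under 0.05 at E18.5, and all 10 lie above 0 on both axes.

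The widest of the 10 was Thbd, at 31.5, 15.4 and 19.1 CPM in KO and 2.14, 0.728 and 3.18 CPM in HT (log2 fold change 3.46, SE 0.40, edgeR adjusted p = 0.000194). Vmn2r78 stood at 17.2, 15.2 and 20.7 CPM in KO and 1.13, 2.27 and 2.88 CPM in HT (log2 fold change 3.04, SE 0.30, edgeR adjusted p = 5.14e-05). The vomeronasal receptor thus had counts in HT before birth and none after it. Irak2 stood at 40.0, 46.6 and 42.3 CPM in KO and 11.4, 11.1 and 14.9 CPM in HT (log2 fold change 1.78, SE 0.18, edgeR adjusted p = 7.39e-05).

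Clca3b was at 103, 83.7 and 84.5 CPM in KO and 28.5, 25.6 and 28.3 CPM in HT (log2 fold change 1.72, SE 0.16, edgeR adjusted p = 3.78e-05). Tmc2 was at 143, 122 and 142 CPM in KO and 39.1, 39.6 and 51.2 CPM in HT (log2 fold change 1.64, SE 0.16, edgeR adjusted p = 5.14e-05). All KO libraries of both genes exceeded all HT libraries by a wide margin. Toporsl (log2 fold change 1.30, edgeR adjusted p = 0.0036), Syn2 (1.27, adjusted p = 0.00219), Pkhd1 (1.23, adjusted p = 0.00205) and Gabrr1 (1.16, adjusted p = 0.00101) passed as well. These 9 calls held without any 1 of the 6 E18.5 libraries. The tenth was a gene model (Gm9733, named after its values were seen, log2 fold change 2.76, edgeR adjusted p = 0.0374), whose call ended without 5 of the 6 libraries and which had 1.15 CPM in KO replicate 3, below 2 of the HT libraries.

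Other higher members did not pass at E18.5. Pkhd1l1 reached 0.80 on the log2 scale (SE 0.24, edgeR adjusted p = 0.156), Msl1 of 0.52 (SE 0.18, adjusted p = 0.259), Fam135a of 0.54 (SE 0.20, adjusted p = 0.325) and Kcnh1 of 0.76 (SE 0.27, adjusted p = 0.313). Rnaseh2b (-0.02), Kbtbd6 (0.04), Fam109b (0.15) and Brinp3 (-0.19) were near 0. Among the 5 lower members tested there 0 passed by edgeR (0.0659% of genes were lower). The unadjusted p was under 0.05 in 2 (8.12% of genes tested, in either direction). The fold change was below 0 in 3, beside 50.8% of all genes. Gsr had -0.39 and Rpe -0.42, and in both the KO libraries were all below the HT libraries (5.62% of genes tested).

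At E16.5, 25 of the 32 higher members were tested and 0 passed by edgeR (0% of genes tested were higher); 3 had an unadjusted p under 0.05 (1.17% of genes tested). Tex15 was the 1 gene of 16185 to pass at that age. The fold change was above 0 in 16 of the 25, beside 48.5% of all genes, with a median of 0.35, beside -0.01. Irak2 stood at 26.0, 28.5 and 34.6 CPM in KO and 11.6, 20.1 and 17.6 CPM in HT (log2 fold change 0.85, SE 0.26, edgeR adjusted p = 0.976). Its KO libraries lay above all HT libraries at E16.5, as in 7 of the 25 members tested, beside 3.29% of genes tested. They also did so at E18.5, and at D2.5, where the values chose the gene. Clca3b stood at 18.4, 15.7 and 44.1 CPM in KO and 3.47, 15.8 and 29.7 CPM in HT, and there the genotypes overlapped.

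**Figure D4:**
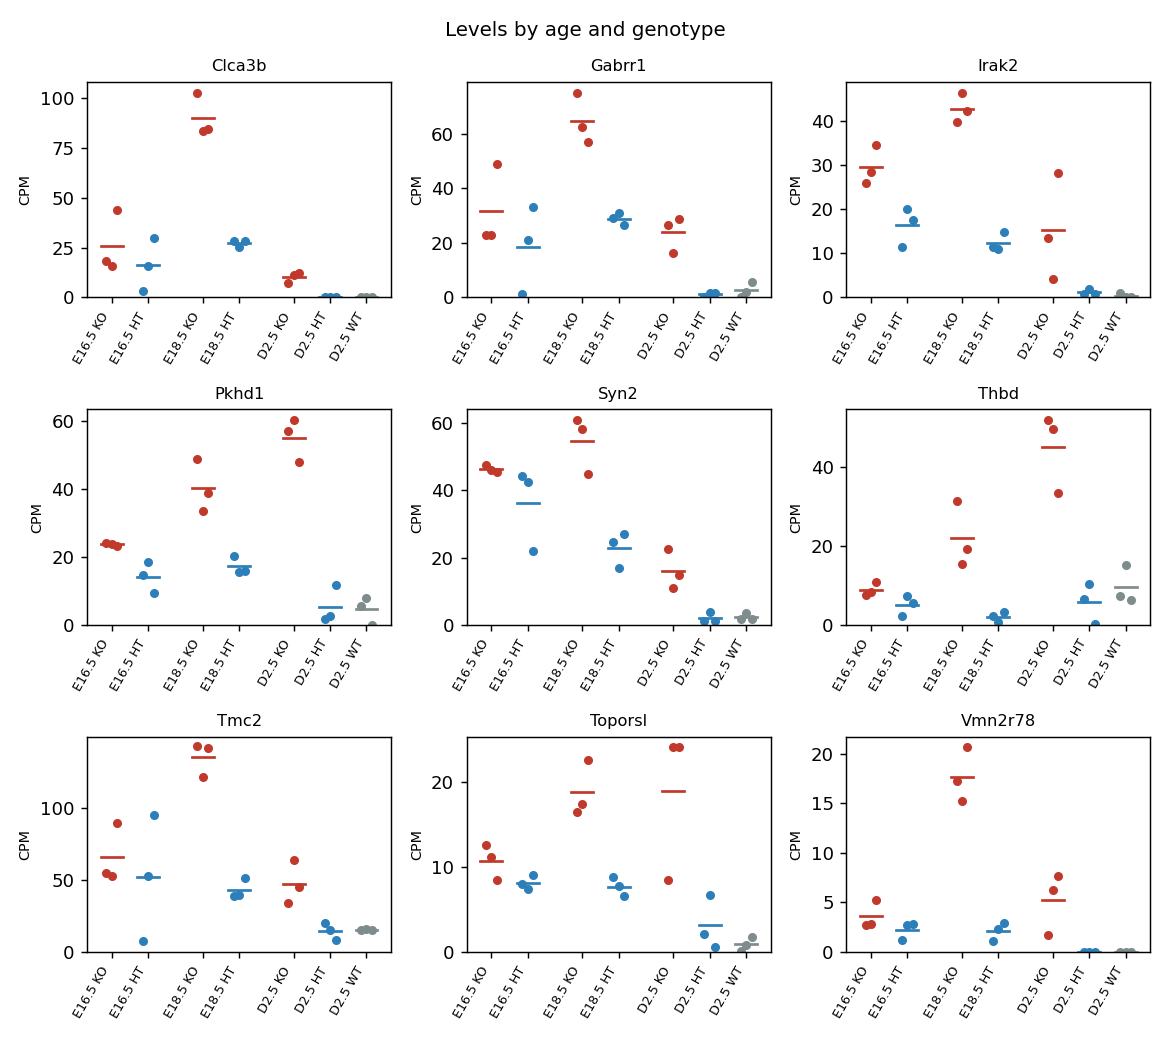
CPM of the 9 genes with a symbol that passed at E18.5, by age and genotype, with points for libraries and bars for means of 3; KO in red, HT in blue and WT in grey, which exists at D2.5 only. At E18.5 and at D2.5 every KO point lies above every control point of its age, beside 8.21% and 2.5% of genes tested. Passing at both ages chose these genes, so nothing is read from that separation.

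Levels in HT differed in order over age between these genes. For Clca3b the HT libraries held 3.47 to 29.7 CPM at E16.5, 25.6 to 28.5 CPM at E18.5 and 0 to 0.454 CPM at D2.5, and the KO libraries held 15.7 to 44.1 CPM, 83.7 to 103 CPM and 7.43 to 12.4 CPM at the same ages. Thbd in HT held 2.12 to 7.19 CPM at E16.5, 0.728 to 3.18 CPM at E18.5 and 0.151 to 10.3 CPM at D2.5, and in KO 7.62 to 10.7 CPM, 15.4 to 31.5 CPM and 33.3 to 52.0 CPM. The change of the KO effect with age was not tested, since each age was fitted on its own.

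Starts of 27 of the 38 members (71.1%) are in the RefSeq promoter table, under the 80% needed for a summary over the set, so none is given. Calls of 3 members held at D2.5 and at E18.5 without any 1 library, although that of Pkhd1 at D2.5 ended in DESeq2. Their 3 promoters are shown. Each runs 5′ to 3′ along the gene from 250 bases before to 50 after the RefSeq start (build GRCm38.p6), with CG dinucleotides, the sites of DNA methylation in mammals, in capitals.
Clca3b: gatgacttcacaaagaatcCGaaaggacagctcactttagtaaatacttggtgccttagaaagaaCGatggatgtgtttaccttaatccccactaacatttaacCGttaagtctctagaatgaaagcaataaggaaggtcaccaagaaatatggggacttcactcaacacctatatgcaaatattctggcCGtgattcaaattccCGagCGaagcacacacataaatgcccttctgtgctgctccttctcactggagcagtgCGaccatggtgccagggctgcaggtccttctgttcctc
Pkhd1: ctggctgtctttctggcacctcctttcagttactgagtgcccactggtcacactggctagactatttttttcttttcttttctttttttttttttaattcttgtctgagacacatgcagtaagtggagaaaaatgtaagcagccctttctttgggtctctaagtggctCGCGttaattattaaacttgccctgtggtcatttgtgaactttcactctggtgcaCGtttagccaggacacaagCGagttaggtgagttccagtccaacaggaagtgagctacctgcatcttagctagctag
Gabrr1: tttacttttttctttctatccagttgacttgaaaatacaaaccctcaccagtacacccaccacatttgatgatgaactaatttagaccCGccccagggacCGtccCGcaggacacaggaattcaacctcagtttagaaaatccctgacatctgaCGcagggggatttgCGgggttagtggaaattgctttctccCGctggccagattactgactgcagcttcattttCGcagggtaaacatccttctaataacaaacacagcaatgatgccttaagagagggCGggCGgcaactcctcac
The Clca3b window lies at chr3:144849253-144849552 on the minus strand, that of Pkhd1 at chr1:20618008-20618307 on the minus strand and that of Gabrr1 at chr4:33132306-33132605 on the plus strand. They hold 7, 4 and 9 CG, in that order. Of the 11398 tested genes with a promoter in the table, 99.2% have at least 1 CG, 15.4% have as few as Clca3b or fewer, 9.05% as few as Pkhd1 and 19.6% as few as Gabrr1. The letters CG read the same on both strands, methylation was not measured, and the counts only describe these windows.

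The 3 repeat names of the class were among 19 that were higher in KO against the 6 controls (1.71% of 1110), and 0 were lower (0%). Over all names tested the median log2 fold change was -0.14. IAPLTR2_Mm is a long terminal repeat of the intracisternal A particle, an active mouse retrotransposon. It stood at 476, 380 and 466 CPM in KO, against 229 to 305 CPM in the controls (median 260), so that the log2 fold change was 0.72 (SE 0.20, adjusted p = 0.0173 by edgeR). MMERVK10C-int, the internal part of another mouse retrovirus of the ERVK family, stood at 2385, 1854 and 2129 CPM in KO, against 1283 to 1535 CPM in the controls (median 1328), so that it was 0.63 higher on the log2 scale (SE 0.18, adjusted p = 0.0284 by edgeR). Zaphod, an old DNA transposon, stood at 213, 311 and 357 CPM in KO, against 136 to 211 CPM in the controls (median 183), so that it was 0.74 higher on the log2 scale (SE 0.21, adjusted p = 0.022 by edgeR). All 3 KO libraries lay above all 6 controls for each name (2.52% of names tested), for Zaphod only narrowly in KO replicate 1. The call of IAPLTR2_Mm ended without HT replicate 2 or WT replicate 3, that of Zaphod in 6 of the 9 fits that left out 1 library and that of MMERVK10C-int in 7. The SE and p of a name here rest on the spread that names of like abundance share.

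**Figure D5:**
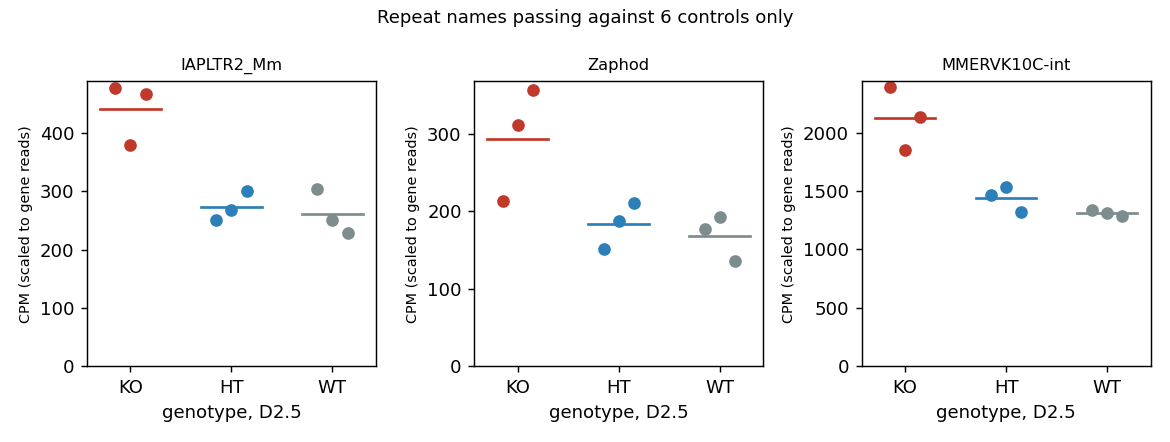
CPM of the 3 repeat names in each D2.5 library by genotype, scaled to gene reads, with bars for means of 3. KO points lie above the control points in each panel, and the lowest KO point of Zaphod (213) is next to the highest control point (211).

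At E18.5, IAPLTR2_Mm (log2 fold change 1.13, edgeR adjusted p = 1.01e-08) and MMERVK10C-int (1.59, adjusted p = 1.4e-15) were higher in KO, beside 9.87% of the 1125 names tested, while Zaphod had 0.34 (adjusted p = 0.306). The fold change was above 0 in 1011 of those 1125 names (89.9%). IAPLTR2_Mm stood at 916, 892 and 1011 CPM in KO and 434, 385 and 472 CPM in HT at that age. At E16.5 none of the 3 passed by edgeR, and 0 of 1090 names did (67 at an unadjusted p under 0.05). Of the 16 IAP names tested at D2.5, 5 were higher against the 6 controls and 1 of these was in the class; of 191 DNA transposon names 2 were higher, Zaphod and MER67D. The 607 names outside the named groups had 5 higher.

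The 4 families that passed against the 6 controls (7.69% of 52) also passed against HT and against WT. Against the 6 controls ERVK was higher by 2.11 on the log2 scale (SE 0.18), L1 of 1.64 (SE 0.20), ERV1 of 1.44 (SE 0.16) and RNA of 0.75 (SE 0.18). Each KO library lay above each control for these families, which gives an exact two-sided permutation p of 0.0238, the smallest that 84 splits of 9 libraries allow, and 0.248 after adjustment over 52 families. With the family totals as library sizes the log2 fold changes were 0.55 for ERVK, 0.07 for L1, -0.15 for ERV1 and -0.80 for RNA. KO libraries held more family counts in all, but these are alignments, and a read can count several times. In the counts of reads per gene and repeat name, the share of repeats was 58.6 to 68.5% in KO and 63.0 to 69.4% in the controls.

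Lists of genes of known roles held no member of the class, which made up 0.264% of all genes tested. Of all genes tested, 0.487% passed against the 6 controls. At such shares a short list can hold 0, so nothing is read from these counts. Among 22 piRNA pathway genes 0 passed (edgeR; 2 lower at an unadjusted p under 0.05, where 8.94% of all genes stood in either direction), and the median was -0.17 on the log2 scale; among 16 genes of the DNA methylation machinery 0 passed (median 0.12), and among 23 methylation-sensitive germline genes 0 passed (median -0.09). Of 17 genes of H3K9 methylation and KRAB repression 1 was higher (median of the list -0.02). It was Suv39h2, a histone H3K9 methyltransferase, at a log2 fold change of 0.96. Of 18 interferon-stimulated genes 1 was higher, Samd9l, at a log2 fold change of 5.37 (median of the list -0.06). Beside these, 0.425% of all genes tested were higher. In lists for fetal germ cells and pluripotency (20 tested), undifferentiated (23) and differentiating (12) spermatogonia, meiotic prophase (28), nucleic acid sensors (16), p53 targets (17) and the cell cycle (27), 0 genes passed in either direction. Medians in those lists ran from -0.15 for differentiating spermatogonia to 0.26 for p53 targets, beside 0.01 for all genes. At an unadjusted p under 0.05, 4 p53 targets were higher and 0 lower. Undifferentiated spermatogonia had 2 higher and 3 lower, and meiotic prophase 1 higher and 2 lower. H3K9 and KRAB repression had 3 higher and 0 lower, as did interferon-stimulated genes. Sertoli markers had 2 higher and 0 lower, as did Leydig markers. Sertoli markers had 12 tested and 0 passing (median 0.54; summed level 106 to 298 CPM in KO, 129 to 144 CPM in HT and 85.0 to 209 CPM in WT), Leydig markers 9 and 0 (median -0.38; Insl3 and Ren1 at 0 in every library), and macrophage and blood markers 6 and 0 (median 0.03; C1qa, Tyrobp, Hba-a1 and Hbb-b1 at 0 in every library).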

How the data were processed

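Germ cells were sorted by Oct4-GFP, and RNA was amplified with NuGEN Ovation kits, per the labels' protocols. The authors deposited raw counts of reads per gene and repeat name, and counts of alignments per repeat family. Per the submitters' processing notes mm9, STAR, Bowtie, featureCounts and edgeR were used; their versions, their roles and the use of strand are not stated there. A read can count several times in the family counts.

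The 9 D2.5 libraries were fitted as 3 groups in edgeR 4.0.16 (R 4.3.3; quasi-likelihood, filterByExpr with minimum count 10 and total 15, TMM over genes), with the contrast KO minus the mean of HT and WT. P-values were adjusted by Benjamini-Hochberg over all features tested, with a threshold of 0.05. Repeat names and families with at least 10 counts in 3 libraries used gene library sizes. The SE was the size of the log2 fold change divided by the square root of F. E18.5 and E16.5 were fitted alone (KO against HT). The fitting was tested on simulated data. Shared 31-base words came from GENCODE M21 transcripts, in which 36 members were found, and a member with over 10% shared counted as uncertain (11 members; 10 overlapped exons of another gene). Figures used Python 3.11.15 with matplotlib 3.10.9.

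The members and gene lists were chosen with earlier results of these data known. Named were Tex15, the 15 members per direction with the largest change among those whose mean log2 CPM was 1 or more, the 3 with the lowest p per direction, the 5 largest changes per direction that passed with both controls alone, repeat names and families that passed, and up to 3 passing members per list; predicted gene models were counted. Alternatives were 6 controls as 1 group, a replicate block, RLE, limma-voom 3.58.1, DESeq2 1.42.0, the newer quasi-likelihood method, other filters, repeat totals and leaving out each library; fits of each control on its own libraries and the E18.5 alternatives were added after seeing the data. P-values measure the spread between these samples. Floors and counting intervals cover counting error only.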

Additional observations from a re-analysis of the deposited data

Results flagged for a closer look

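In 41 genes, names and families reported here, 6 had 1 control library far from the other 5 by Dixon's ratio at the 95% level. The rate of 1 in 20 by chance holds for normal values and not for counts near 0, so nothing is read from how many rows were flagged. Svs2 was at 1.09 CPM in WT replicate 1, while the other 5 controls held 0 to 0.154 CPM. Tmc2 was at 8.18 CPM in HT replicate 3, while the others held 14.8 to 19.7 CPM. Thbd was at 0.151 CPM in HT replicate 3, while the others held 6.34 to 15.1 CPM, and without that library its log2 fold change was 2.32 (edgeR adjusted p = 0.00532), against 2.60 with it; its call ended without any 1 of 5 other libraries. Stfa1 was at 2.31 CPM in HT replicate 1, while the others held 0 to 0.288 CPM, and without that library its log2 fold change was 5.99 (edgeR adjusted p = 0.00847), against 4.77 with it. Without KO replicate 2 it was 3.24 (edgeR adjusted p = 0.497). Stfa2 was at 0.154 CPM in HT replicate 1, which is 1 count, and at 0 in the others. Cdh19, which passed in all 3 comparisons, was at 3.24 CPM in WT replicate 2, while the others held 0.144 to 0.625 CPM.

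Tex15 was the 1 gene whose KO effect differed between the control genotypes: its log2 fold change was -6.49 against HT and -7.60 against WT, and the difference of HT minus WT was -1.10 (edgeR adjusted p = 0.00133).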

How the results depend on the processing

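Which genes pass with the pooled controls only depends on thresholds near which many genes lie. The number was 60 with the newer quasi-likelihood method, 121 with no filter, 14 with a stricter filter and 24 to 44 without 1 library, against 38. DESeq2 called 36 of the 38 against the 6 controls, but 34 of these also against a control alone, so that 2 remained in the class; limma-voom called 28, of which 24 remained. With each control fitted on its own 6 libraries 29 of the 38 remained. Leaving out a library ended the call of 18 members for KO replicate 1, 26 for KO replicate 2 and 24 for KO replicate 3; 21 ended without at least 1 HT library and 25 without at least 1 WT library. Calls of Pkhd1, Clca3b, Gabrr1 and Pkhd1l1 held without any 1 library, though that of Pkhd1 ended in DESeq2. Clca3b was not tested under the stricter filter. In all other tools and settings 12 members were called, and 0 changed sign in any setting. Only 20 of the 38 were tested under the stricter filter, and a member not tested there was counted as not called.

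Against the 6 controls, genes higher in KO numbered 116 by DESeq2, 107 by the newer method and 224 with no filter, with 47 to 73 without 1 library, against 61. Genes lower numbered 70 by DESeq2, 47 with no filter, 5 by limma-voom and 3 to 8 without 1 library, against 9. Repeat names higher numbered 50 with repeat totals as library sizes and 12 to 26 without 1 library, against 19; names of the class numbered 5 with the 6 controls as 1 group, 8 with repeat totals and 0 to 5 without 1 library, against 3. None of the 3 names stayed in the class with repeat totals, with DESeq2 or without HT replicate 1, HT replicate 2 or WT replicate 3. With repeat totals ERV1 reversed to -0.15 and RNA to -0.80. The causes were not tested.

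Deviations of same-numbered replicates had correlations of -0.059 to 0.032, and 2 of 9 libraries correlated best with their own number. No pairing by number was seen in these values, but with 3 libraries per genotype they cannot exclude it. With the replicate block 57 genes were higher, 5 lower and 28 passed with the pooled controls only, 22 of them among the 38. At E18.5, 9 to 14 higher members passed over all alternatives, against 10.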
